A study of Mus musculus with 8 samples.

Results

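The genes of the cytosolic ribosomal proteins were followed through early mouse development in embryos made from wild-type or Tet3-null oocytes. Members were chosen by symbol: every listed gene whose symbol is Rpl or Rps, a number and an optional a, x or l, together with Rplp0, Rplp1, Rplp2 and Rpsa. The rule found 81 genes among the 23234 listed. All 81 reached 1 FPKM in at least 2 of the 8 libraries, the filter that 13549 genes passed in all. Of the 81, 46 encode proteins of the large ribosomal subunit, 31 encode proteins of the small subunit, and 4 (Rpl3l, Rpl10l, Rpl39l and Rps27l) are copies of other members.

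RNA-seq was run on pools of whole embryos, in 4 groups of 2 libraries set by oocyte genotype and stage. Wild-type females carried floxed Tet3 on both chromosomes (f/f), with no Cre status in the labels. CKO females carried a floxed and a null allele (f/-) and Zp3-Cre, a transgene active in growing oocytes, so their oocytes are labelled Tet3-null. Females of both kinds were superovulated, all oocytes were fertilized in the dish by CAST/EiJ sperm, and zygotes showing 2 pronuclei were grown in KSOM medium. Embryos of every group thus received a sperm Tet3 allele, and Tet3-null names the oocyte. Each 2-cell library pooled 10 embryos at 30 h after fertilization and each blastocyst library pooled 7 embryos at 96 h. Ages of the females are not in the labels. Nothing in the labels ties the pools of a group to separate females, so the p-values reflect the spread between these libraries alone, and that spread may be technical.

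Ribosomal proteins are assembled with ribosomal RNA into the subunits that carry out all protein synthesis in the cytosol. Many of their messages start with an unbroken run of C and T letters, the terminal oligopyrimidine (TOP) tract, through which the kinase mTOR and the RNA-binding protein Larp1 control their translation and storage. Mouse oocytes store messages and ribosomes during growth. Transcription from the embryo's own genome takes over at the 2-cell stage, and new ribosomes are made from then on as the embryo becomes a blastocyst, with an outer trophectoderm around an inner cell mass.

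FPKM is a fragment count divided by gene length and by the library's mapped total. Read totals are unknown; the summed FPKM was 600495 to 634816 at the 2-cell stage and 924556 to 956335 at the blastocyst stage. Tet3 itself was listed at 10.8 and 7.54 FPKM in wild-type and 3.28 and 4.41 FPKM in Tet3-null 2-cell libraries (limma adjusted p = 0.0690), and below 1 FPKM in every blastocyst library. Which exons the null allele lacks is not in the labels, so this value cannot check the deletion. Tet3-null 2-cell replicate 2 stood apart, with 7101 genes listed at 0 against 5549 to 6080 in the other 2-cell libraries. Its 4 Y-linked genes summed to 0.158 FPKM, against 24.9 to 34.2 in the other 3. Marker sums followed the stage labels: 5 markers of the 2-cell stage gave 719 to 1297 FPKM there and at most 1.58 FPKM in blastocysts, whereas 5 trophectoderm markers gave 25.8 to 37.5 and then 2696 to 4475 FPKM. Of 6 cumulus and granulosa markers only Tnfaip6 reached 1 FPKM, at the 2-cell stage, and the 3 blood markers summed to under 0.01 FPKM in every library.

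The family took about double the share of the message pool in blastocysts that it took in 2-cell embryos. The 81 genes held 10.1 and 11.48% of the summed FPKM in the wild-type 2-cell libraries (10.8 ± 1.0%, SD, n = 2) and 20.6 and 20.9% in the wild-type blastocyst libraries (20.8 ± 0.207%, SD, n = 2). In Tet3-null libraries they held 10.5 and 8.65% at the 2-cell stage (9.55 ± 1.28%, SD, n = 2) and 21.1 and 21.97% at the blastocyst stage (21.5 ± 0.627%, SD, n = 2). Every blastocyst library lay above every 2-cell library. The median member stood at 411 and 483 FPKM in wild-type and 436 and 373 FPKM in Tet3-null 2-cell libraries. In blastocysts it stood at 2334 and 2339 FPKM in wild-type and 2400.0 and 2511 FPKM in Tet3-null libraries. Members made up 13 to 21 of the 100 highest genes of a 2-cell library and 52 to 54 of those of a blastocyst library. FPKM gives a share of a library and not an amount per embryo or per cell. From such a share, more of these messages and less of other messages cannot be told apart.

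**Figure D1:**
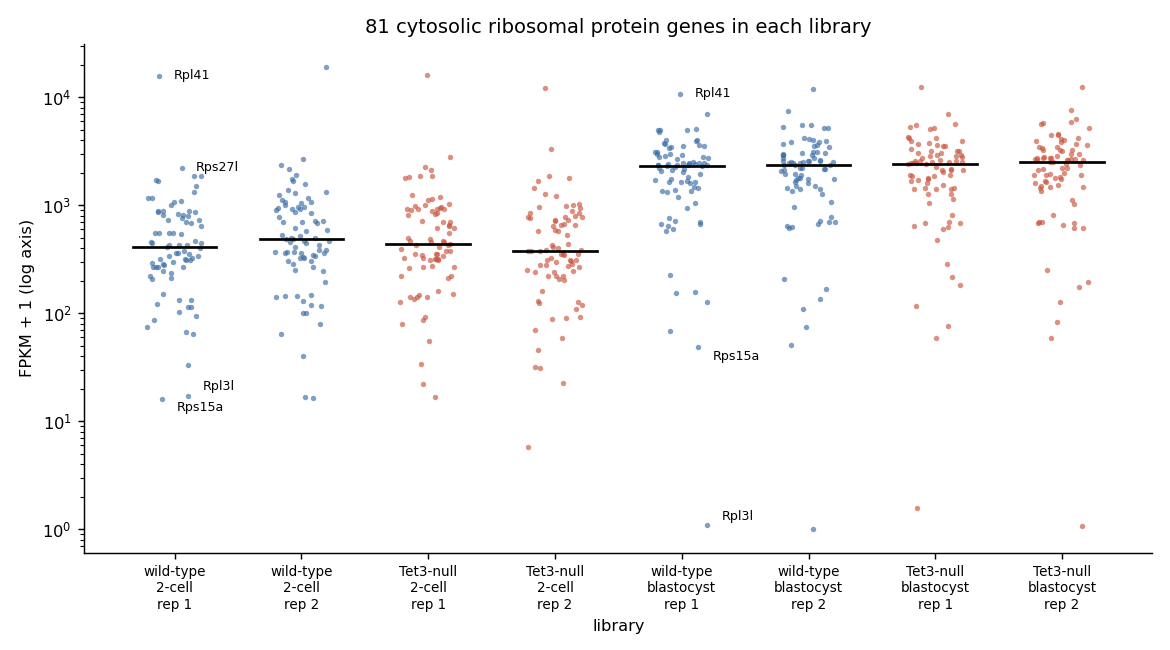
Each point is a member's FPKM + 1 (log axis) in each of the 8 libraries, blue for wild-type and red for Tet3-null, with a black bar at the library's median. The medians are 373 to 483 FPKM in 2-cell libraries and 2334 to 2511 FPKM in blastocyst libraries, and Rpl41 is the highest point in every library.

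Levels of single members differed widely, and since FPKM is per length they can be set against each other. In wild-type 2-cell embryos Rpl41 led at 17415 ± 2279 FPKM (SD, n = 2), followed by Rps27l (2459 ± 338), Rps29 (2121 ± 354), Rps26 (2010.3 ± 210.1) and Rps19 (1789.9 ± 147). From Rps27l to Rps19 each gene's libraries overlapped those of the next, so only Rpl41 stood clear across libraries. Within each of the 2 libraries, Rps27l, Rps29, Rps26 and Rps19 kept this order. The lowest were Rps15a (15.3 ± 0.211 FPKM), Rpl3l (16.1 ± 0.287), Rpl22 (35.9 ± 5.27), Rpl26 (65.1 ± 2.1) and Rpl5 (71.1 ± 10.9). In wild-type blastocysts the order began with Rpl41 (11285 ± 769 FPKM), Rps18 (7167 ± 334), Rpl38 (5332 ± 324), Rps29 (5307 ± 409) and Rps28 (5126 ± 194), of which the last 3 overlapped. It ended with Rpl10l (144 ± 13.9 FPKM), Rpl39l (117 ± 11.9), Rpl30 (70.8 ± 3.68), Rps15a (48.9 ± 1.88) and Rpl3l, listed at 0.0906 and 0 FPKM. Most ribosomal proteins are present in equal numbers in a finished ribosome, the stalk proteins Rplp1 and Rplp2 being an exception. The members kept much of their order between stages, with a correlation of wild-type mean log2(FPKM + 1) across the 81 genes of r = 0.80 and rho = 0.79; the stages share the gene lengths and annotation, and genes are not independent replicates. Members whose level was low in wild-type 2-cell replicate 1 tended to rise more, reckoned from replicate 2 (rho = -0.43 and r = -0.10 across the 81 genes, -0.49 and -0.38 without Rpl3l). These replicates correlated at r = 0.995 over the members. The rise therefore still holds nearly the same 2-cell level with a minus sign, and the relation is a description only.

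The middle of the family drew closer together at the blastocyst stage, while its extremes moved in different ways. On the log2(FPKM + 1) scale Rpl41, the highest member, lay nearer to the members' median in every blastocyst library than in any 2-cell library. Rpl3l, among the lowest, lay farther below that median in every blastocyst library than in any 2-cell library. The ninetieth percentile of member FPKM was 9.13 to 11.8 times the tenth in the 4 2-cell libraries and 6.47 to 7.29 times in the 4 blastocyst libraries. The SD of log2(FPKM + 1) over all members, which takes in Rpl3l near 0, was 1.57 to 1.66 in 2-cell and 1.79 to 1.86 in blastocyst libraries. The subunits differed at the 2-cell stage, where the median of the 46 large-subunit genes was 317 to 398 FPKM and that of the 31 small-subunit genes 555 to 702 FPKM. In blastocysts these medians were 2285 to 2443 and 2439 to 2659 FPKM, nearly level with each other.

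Rpl41 encodes the smallest protein of the ribosome, and by itself accounted for 22.3 to 26.5% of the family's FPKM in 2-cell libraries and 5.64 to 6.22% in blastocyst libraries. Its rank among all 23234 genes was 1 or 2 at the 2-cell stage and 5 or 6 in blastocysts. Its coding sequence has only 78 bases, the fewest among the members. Its transcript is not the shortest, at 582 bases in GENCODE against 345 for Rps27, and the length used for its FPKM is not known. The coding sequence is shown, spliced from chr10:128548387-128548960 (minus strand, GRCm38, GENCODE), with the start and stop codons in capitals.
Rpl41: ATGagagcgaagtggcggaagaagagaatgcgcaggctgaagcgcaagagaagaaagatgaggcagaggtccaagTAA
With Rpl41 left out, the other 80 members held 7.93% of summed FPKM in wild-type and 7.33% in Tet3-null 2-cell libraries, and 19.6 and 20.2% in blastocysts. Within a group, the 41 members with at most 459 coding bases differed between replicates by a median of 0.27 and 0.32 (log2, wild-type and Tet3-null 2-cell) and 0.08 and 0.10 (blastocyst), against 0.20, 0.27, 0.05 and 0.07 for the 40 longer members. At the 2-cell stage, 76 of 81 members were higher in wild-type replicate 2 than in replicate 1, and 69 of 81 were higher in Tet3-null replicate 1 than in replicate 2. Once each library pair was centred on its median difference, the shorter and longer members differed between replicates by 0.10 and 0.11 in wild-type 2-cell and by 0.05 and 0.04 in wild-type blastocyst libraries. In Tet3-null libraries these medians after centring were 0.18 and 0.20 at the 2-cell stage and 0.05 and 0.02 in blastocysts.

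From the 2-cell stage to the blastocyst nearly the whole family rose. In wild-type embryos limma called 73 of 81 members higher, beside 35.8% of all genes tested, and 4 lower, beside 38.4%, at an adjusted p of 0.05. In embryos from Tet3-null oocytes it called 75 higher, beside 38.9% of all genes, and 2 lower, beside 35.1%. The median member rose by 2.1 on the log2(FPKM + 1) scale in wild-type and by 2.31 in Tet3-null embryos, whereas the medians of all genes tested were -0.08 and 0.09. Among the 46 large-subunit genes 43 rose in each genotype, and among the 31 small-subunit genes 30 rose in wild-type and 31 in Tet3-null embryos. The size of the rise depended on scaling: with quantile normalization the medians were 1.32 and 1.52, with 70 members called higher in each genotype and 6 and 5 lower.

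Rps18, a protein of the small-subunit head that contacts transfer RNA, had the largest rise among the members in both genotypes. It stood at 544 and 698 FPKM in wild-type 2-cell and 6931 and 7404 FPKM in wild-type blastocyst libraries, and at 616 and 374 and then 7061 and 7651 FPKM in Tet3-null libraries. The groups were far apart, with a log2 difference of 3.54 ± 0.24 (SE) in wild-type and 3.93 ± 0.24 in Tet3-null embryos (limma adjusted p = 1.3e-05 and 7.5e-06). Rpl5, which carries 5S ribosomal RNA into the large subunit together with Rpl11, went from 63.5 and 78.8 to 761 and 778 FPKM in wild-type embryos, a 10.8-fold rise in mean FPKM. In Tet3-null embryos Rpl5 went from 78.0 and 68.9 to 818 and 813 FPKM, and no library of either genotype overlapped between the stages. Rpl8, Rpl18 and Rpl7, all of the large subunit, completed the 5 largest rises in wild-type embryos, with log2 differences of 3.29, 3.13 and 3.03. In Tet3-null embryos the 5 largest were those of Rps18, Rpl14 (3.60), Rpl9 (3.55), Rpl5 (3.46) and Rpl27 (3.41), the values in parentheses being log2 differences.

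Groups of members defined by their place in the ribosome rose as the whole family did. The family's median log2 difference was 2.1 in wild-type and 2.31 in Tet3-null embryos. Of all genes tested, 35.8% were called higher in wild-type and 38.9% in Tet3-null embryos. All 14 proteins of the small-subunit head rose in both genotypes, with median log2 differences of 2.11 in wild-type and 2.31 in Tet3-null embryos; Rps19, mutated in Diamond-Blackfan anaemia, was the smallest of these in wild-type at 1.18 ± 0.11 (SE). All 9 proteins that line the polypeptide exit tunnel or surround its exit rose in both genotypes, with medians of 2.01 and 2.44. Rpl5, Rpl11, Rpl23 and Rps7 can bind and inhibit Mdm2, the ubiquitin ligase of p53, when ribosome assembly fails. All 4 rose, and in wild-type embryos Rpl11 rose 4.84-fold in mean FPKM, Rps7 5.63-fold and Rpl23 2.2-fold.

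The stalk that recruits elongation factors, built of Rplp0, Rplp1 and Rplp2, had stage differences below the family's median. Rplp1 stood at 1169.7 and 1396 FPKM in wild-type 2-cell and 3756 and 3833 FPKM in wild-type blastocyst libraries, a log2 difference of 1.57 ± 0.14 (SE, limma adjusted p = 4.7e-05). Rplp2 went from 1329.5 and 1573 to 2815 and 2902 FPKM, a difference of 0.98 ± 0.12 (adjusted p = 2.4e-04). Rplp0, the base of the stalk, stood at 1512 and 1689 and then 1966 and 2151 FPKM and was not called, at 0.36 ± 0.19 (adjusted p = 0.126). In Tet3-null embryos the log2 differences were 1.81, 0.58 and, not called, 0.50 (adjusted p = 0.05005). The direction for Rplp0 flipped with scaling, to -0.60 in wild-type and -0.36 in Tet3-null embryos under quantile normalization and to -0.17 and -0.05 with a fixed sum without small RNA genes. In wild-type embryos limma then called it lower with quantile normalization (adjusted p = 0.0133) and higher with median-of-ratios scaling (0.52, adjusted p = 0.0317). The call of Rplp2 was lost in wild-type embryos with quantile normalization (0.07, limma adjusted p = 0.534). In Tet3-null embryos it was lost with a fixed sum without small RNA genes (0.03, adjusted p = 0.759) and with quantile normalization, where the difference flipped to -0.22 (adjusted p = 0.0903).

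Against the trend of the family, Rpl3l, Rpl30, Rpl41 and Rpl39l fell in wild-type embryos. Rpl30, a large-subunit protein that also helps place selenocysteine in proteins, stood at 93.1 and 130.4 FPKM in wild-type 2-cell and 68.2 and 73.4 FPKM in wild-type blastocyst libraries. The groups did not overlap, and the log2 difference was -0.63 ± 0.18 (SE, limma adjusted p = 0.0140). In Tet3-null embryos Rpl30 went from 127 and 124 to 74.7 and 81.4 FPKM and fell by 0.68 (adjusted p = 0.00998). Rpl41 fell from 15804 and 19027 to 10741 and 11829.5 FPKM in wild-type embryos, a log2 difference of -0.62 ± 0.15 (adjusted p = 0.00811). In Tet3-null embryos Rpl41 stood at 15927 and 12268 and then 12401 and 12494 FPKM, the libraries overlapped, and it was not called (-0.17 ± 0.15, adjusted p = 0.352). The wild-type calls of Rpl30, Rpl41 and Rpl39l each rested on particular libraries: without wild-type blastocyst replicate 1 the limma adjusted p was 0.0756 for Rpl30, 0.0576 for Rpl41 and 0.0611 for Rpl39l. Without wild-type 2-cell replicate 2 it was 0.0691 for Rpl30 and 0.183 for Rpl39l. The call of Rpl39l was also lost without wild-type blastocyst replicate 2 (0.164) and without either Tet3-null blastocyst library (0.0568), and the Tet3-null call of Rpl30 was lost without Tet3-null blastocyst replicate 1 (0.0631). With no filter on low values the wild-type adjusted p was 0.0978 for Rpl41 and 0.0550 for Rpl39l. Conversely, quantile normalization and the fixed sum without small RNA genes each called Rpl41, Rpl39l and Rps27l lower in Tet3-null blastocysts, with log2 differences of -1.10, -0.68 and -0.77 under the former.

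**Figure D2:**
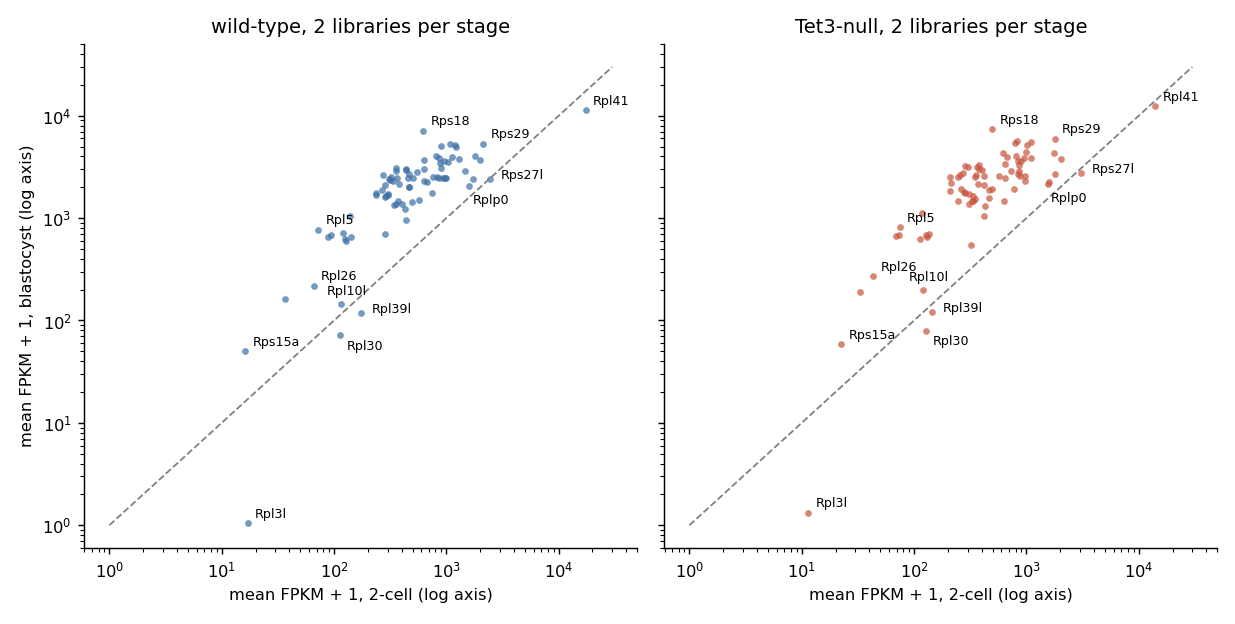
Each point is a member, placed by its mean FPKM + 1 in 2-cell libraries (horizontal log axis) and in blastocyst libraries (vertical log axis), for wild-type on the left and Tet3-null on the right, with the line of equal values dashed. Nearly all members lie above the line, while Rpl3l, Rpl30, Rpl39l, Rpl41 and, barely, Rps27l lie below it in both panels.

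Rises were larger for genes with longer coding sequences. In wild-type embryos the median log2 difference was 1.76 for the 41 members with at most 459 coding bases and 2.47 for the 40 longer ones; in Tet3-null embryos it was 2.00 and 2.47. Across the 81 genes the rank correlation of coding length with the difference was rho = 0.42 in wild-type and 0.35 in Tet3-null embryos, and the Pearson r was 0.13 and 0.15. Small RNA genes held 7.41 to 11.2% of summed FPKM in 2-cell libraries and 12.2 to 12.9% in blastocyst libraries. With a fixed sum without them the members' median rise was 1.57 in wild-type and 1.77 in Tet3-null embryos. That scaling divides all members of a library by the same number. The cause of the relation with length was not tested.

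Because members rose together, the bases around their start sites were read from RefSeq promoter windows (GRCm38.p6), which held 61 of the 81 genes. Each stretch runs from 20 bases before to 10 bases after the annotated start, on the gene's strand. Rps18, Rpl18, Rpl5 and Rpl14, among the largest rises, are shown with a run of at least 8 C or T letters, and Rpl9 and Rpl27, also among the largest in Tet3-null embryos, without one. Rps27 and Rps27l have such a run and were not called in wild-type embryos, and Rpl41, Rpl39l and Rpl10l have none. Capitals mark the longest run of C and T letters in each stretch.
Rps18: acttatacgtcacttccgCTCTCTCTTCCa
Rpl18: acgagtgcgtctcgcaggccgCTCTTTCCC
Rpl5: CTCTTTCTCacgtcgcttgcgtgctggtgg
Rpl14: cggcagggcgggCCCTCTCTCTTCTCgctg
Rpl9: gcgacacgcagggCCCTgacggattacaag
Rpl27: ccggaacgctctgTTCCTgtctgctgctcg
Rps27: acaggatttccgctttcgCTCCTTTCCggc
Rps27l: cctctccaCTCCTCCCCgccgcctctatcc
Rpl41: gacgacacacgggccggCTCggaagtgacg
Rpl39l: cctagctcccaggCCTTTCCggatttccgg
Rpl10l: agaaatttggCCTCCattttgcggctggcg
They lie at chr17:33955656-33955685 (minus), chr7:45718051-45718080 (plus), chr5:107900508-107900537 (plus), chr9:120571497-120571526 (plus), chr5:65391422-65391451 (minus), chr11:101442225-101442254 (plus), chr3:90213639-90213668 (minus), chr9:66946066-66946095 (plus), chr10:128549159-128549188 (minus), chr16:10170208-10170237 (plus) and chr12:66284392-66284421 (minus strand). Rps27l has another annotated start, without such a run, not shown. In Rpl5 the run begins at the first base of the stretch, well before the annotated start.

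A run of at least 8 C or T letters was in the stretch of 27 of the 61 member genes with a window (44.3%), against 14.5% of 27025 genes. In this paragraph all genes are those 27025 with a RefSeq window, expressed here or not, and not the genes tested. On the opposite strand of the same stretches the shares were 6.56 and 15.1%. The letters CTTTCC on the gene's strand were in 16.4% of member genes and 1.78% of all genes, and on the other strand in none of the 61 and in 1.38% of all. In the whole window of 300 bases, searched on both strands, CCGGAAG, letters bound by Gabpa and other ETS factors, was in 42.6% of member genes and 9.93% of all genes. AAGATGGC, letters bound by Yy1, was in 8.20 and 3.19%, and TATAAA in 9.84 and 15.7%. The 27 genes with a run rose by a median of 2.12 (log2) in wild-type embryos, ranging from -0.04 for Rps27l to 3.54 for Rps18. The 34 genes with a window and no run rose by 1.89, ranging from -4.03 to 2.92, and the 20 members without a window by 2.24. In Tet3-null embryos the medians were 2.36, 2.08 and 2.37 in the same order. A match describes letters in an annotated window and is not a measured start site.

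The 4 copies did not follow the family. Rpl3l is expressed in heart and skeletal muscle in place of Rpl3, Rpl10l and Rpl39l are copies of X-linked genes used in male germ cells, and Rps27l is a target of p53. Only 1 of the 4, Rpl10l in Tet3-null embryos, was called higher in blastocysts in either genotype. Their partners Rpl3, Rpl10 and Rpl39 rose in both, and the partner Rps27 was called higher in Tet3-null embryos only. Reads that match a copy and its partner alike could have been counted for either; their treatment is not given. The same holds for the many processed pseudogenes of this family, so values of single members are uncertain to that extent.

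Rps27l was the second most abundant member in wild-type 2-cell embryos and outweighed Rps27 in every 2-cell library. Its level was 2219.7 and 2698 FPKM in wild-type and 2825 and 3339 FPKM in Tet3-null 2-cell libraries, against 1710.0 and 1749.6 FPKM (wild-type) and 1868 and 1279.8 FPKM (Tet3-null) for Rps27. In blastocysts Rps27l stood at 2226 and 2540.3 FPKM (wild-type) and 2798 and 2732 FPKM (Tet3-null), and Rps27 at 2759 and 2082 FPKM and 2109.9 and 2415 FPKM. Rps27l thus made up 56.5 to 72.3% of the pair in 2-cell libraries and 44.7 to 57.0% in blastocyst libraries, with overlap between the stages. Neither gene was called between the stages in wild-type embryos (limma adjusted p = 0.808 for Rps27l and 0.0776 for Rps27). In Tet3-null embryos Rps27 was called higher in blastocysts and Rps27l was not called (limma adjusted p = 0.368 for Rps27l). With other scalings Rps27l was called lower in wild-type blastocysts, by quantile normalization at -1.08 (adjusted p = 0.000584) and by a fixed sum without small RNA genes at -0.57 (adjusted p = 0.00567). The coding sequences of the pair differ at 61 of 255 positions and share no identical run longer than 11 bases. Whether fragments of Rps27l and Rps27 were counted for each other was not tested. Capitals mark positions that differ; the genes are at chr9:66946175-66949357 (plus) and chr3:90212725-90213615 (minus), GRCm38, GENCODE, introns removed.
Rps27l: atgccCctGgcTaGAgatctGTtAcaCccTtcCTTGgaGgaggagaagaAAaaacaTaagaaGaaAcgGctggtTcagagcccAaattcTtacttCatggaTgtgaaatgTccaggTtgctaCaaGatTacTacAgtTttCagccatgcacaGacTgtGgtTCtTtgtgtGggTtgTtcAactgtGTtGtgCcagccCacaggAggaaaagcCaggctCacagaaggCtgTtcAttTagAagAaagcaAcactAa
Rps27: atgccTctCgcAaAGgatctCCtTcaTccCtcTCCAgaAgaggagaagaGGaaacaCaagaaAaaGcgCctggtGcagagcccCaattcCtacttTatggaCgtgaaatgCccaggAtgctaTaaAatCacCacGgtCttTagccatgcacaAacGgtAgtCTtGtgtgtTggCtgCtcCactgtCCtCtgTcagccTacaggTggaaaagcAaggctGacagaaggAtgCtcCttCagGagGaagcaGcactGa

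Rpl39l fell in wild-type embryos while Rpl39, a small protein of the exit tunnel, rose. Rpl39l stood at 149.5 and 194 FPKM in wild-type 2-cell and 125 and 109 FPKM in wild-type blastocyst libraries (log2 difference -0.54 ± 0.19, SE; limma adjusted p = 0.0336). In the Tet3-null embryos it stood at 161 and 125 and then 115 and 125 FPKM, with overlap and no call (adjusted p = 0.288). Rpl39 went from 764 and 955 to 2370.1 and 2581 FPKM in wild-type and from 920.1 and 1026 to 2267 and 2375 FPKM in Tet3-null embryos. Rpl39l therefore made up 10.9 to 16.9% of the pair at the 2-cell stage and 4.04 to 5.03% in blastocysts, without overlap. The wild-type call of Rpl39l was lost with median-of-ratios scaling (adjusted p = 0.0734). The coding sequences differ at 23 of 156 positions and share a run of 38 identical bases, so short fragments can fit both; capitals mark the differences, and the genes lie at chr16:10174310-10174465 (plus) and chrX:37082701-37085127 (minus), GRCm38, GENCODE.
Rpl39l: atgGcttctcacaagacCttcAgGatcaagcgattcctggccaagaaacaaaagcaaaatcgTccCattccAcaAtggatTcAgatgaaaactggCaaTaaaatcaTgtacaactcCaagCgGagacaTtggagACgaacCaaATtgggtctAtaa
Rpl39: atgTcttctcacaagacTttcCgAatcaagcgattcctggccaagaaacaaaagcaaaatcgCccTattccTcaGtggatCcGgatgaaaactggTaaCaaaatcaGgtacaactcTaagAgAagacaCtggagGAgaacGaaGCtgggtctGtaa

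Rpl10l and Rpl3l were smaller parts of their pairs. Rpl10l was at 114 and 116 FPKM in wild-type 2-cell and 154 and 134 FPKM in wild-type blastocyst libraries and was not called (log2 difference 0.31 ± 0.26, SE; limma adjusted p = 0.295), and the difference turned to -0.07 with quantile normalization and to -0.21 with a fixed sum without small RNA genes. In Tet3-null libraries it was at 151 and 87.7 and then 218 and 173 FPKM and was called (adjusted p = 0.0309). That call was lost with quantile normalization (0.28, limma adjusted p = 0.339) and with a fixed sum without small RNA genes (0.21, adjusted p = 0.468). As Rpl10 rose, Rpl10l went from 14.1 to 24.6% of the pair at the 2-cell stage to 5.19 to 10.2% in blastocysts. Rpl3l was at 16.3 and 15.9 FPKM in wild-type and 15.9 and 4.85 FPKM in Tet3-null 2-cell libraries. In blastocysts it was listed at 0.0906 and 0 FPKM (wild-type) and 0.571 and 0.0706 FPKM (Tet3-null), under 1 FPKM in all 4 libraries. It fell by 4.03 in wild-type and fell by 2.94 in Tet3-null embryos on the log2(FPKM + 1) scale (adjusted p = 1.7e-04 and 8.5e-04). The coding sequences are 84.8% identical for Rpl10l and Rpl10 and 73.3% for Rpl3l and Rpl3.

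Rps4x, the X-linked form of a small-subunit protein, has a copy, Rps4l, listed under its synonym Rps4y2, a symbol that lies outside the rule. Rps4y2 is not among the 4 Y-linked genes summed in this report. Rps4y2 was at 200.2 and 303 FPKM in wild-type and 261 and 248 FPKM in Tet3-null 2-cell libraries, near the levels of Rps4x, 223 and 247 FPKM in wild-type and 219 and 269 FPKM in Tet3-null libraries. In blastocysts Rps4y2 was at 1011 and 816 FPKM (wild-type) and 487 and 566 FPKM (Tet3-null), which was 38.0 and 32.4% of the pair in wild-type libraries and 25.5 and 27.6% of it in Tet3-null libraries. It rose in both genotypes (log2 difference 1.88 and 1.04, limma adjusted p = 1.7e-04 and 0.00332). The genotype difference in blastocysts was -0.79 ± 0.21 (SE), with no overlap and an adjusted p of 0.598.

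**Figure D3:**
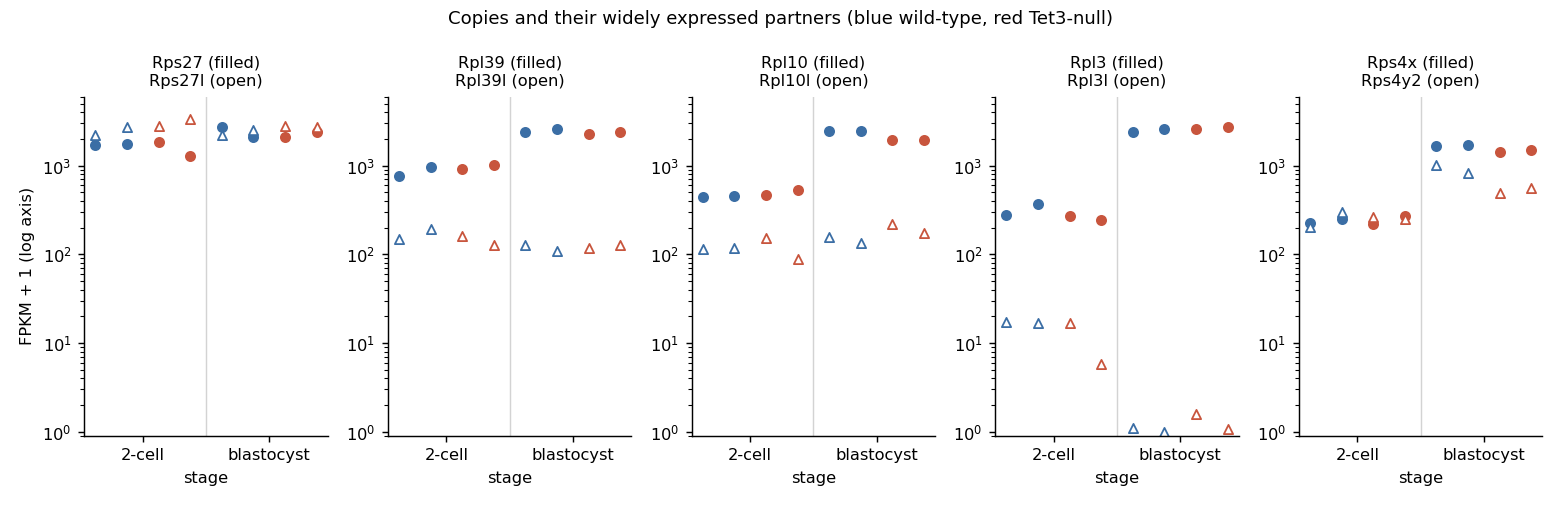
The 5 panels give FPKM + 1 (log axis) of a copy (open triangles) and its partner (filled circles) in each library, blue for wild-type and red for Tet3-null, with 2-cell libraries left of the grey line and blastocyst libraries right of it. Rps27l lies at or above Rps27 in most libraries, Rpl39l and Rpl10l lie far below partners that rise, Rpl3l drops to about 1, that is to near 0 FPKM, in blastocysts, and Rps4y2 lies near Rps4x at the 2-cell stage and below it in blastocysts.

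At the 2-cell stage no member was called between genotypes. Limma called 0 of 81 at an adjusted p of 0.05, beside 2.72% of all genes tested (368 genes). At an unadjusted p under 0.05 there were 8 members, 2 higher and 6 lower in Tet3-null embryos, beside 23.7% of all genes. Libraries of the genotypes did not overlap for 20 members: 6 were higher in both Tet3-null libraries, beside 12.6% of all genes, and 14 lower, beside 34.9%. The median member differed by -0.10 (log2) and the median gene by -0.17.

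Rps15a, a small-subunit protein, had the largest positive difference. It stood at 15.1 and 15.4 FPKM in wild-type and 21.2 and 21.6 FPKM in Tet3-null libraries, without overlap (log2 difference 0.46 ± 0.13, SE; limma adjusted p = 0.0977). Rps27l (0.33) and Rplp2, at 1329.5 and 1573 against 1798 and 1775 FPKM (0.30), were also higher in both Tet3-null libraries; the difference of Rps27l turned to -0.05 with quantile normalization. On the other side, Rpl26, an exit-tunnel protein that also binds p53 messages, was at 66.5 and 63.6 FPKM in wild-type and 54.2 and 30.2 FPKM in Tet3-null libraries (-0.67 ± 0.25, adjusted p = 0.172). Rpl9 was at 350.4 and 519.9 against 346 and 222 FPKM (-0.62 ± 0.25, adjusted p = 0.191). Rpl14 was at 270.0 and 346 against 213 and 206 FPKM (-0.54 ± 0.14, adjusted p = 0.0811). Rpl3l had the most negative difference (-0.78), but its libraries overlapped. The genotypes did not overlap for Rpl26, Rpl9 and Rpl14, yet for Rpl26 and Rpl9 the Tet3-null libraries were farther from each other than the nearest wild-type and Tet3-null libraries were. Rpl13 differed by 0.21, with overlap, and by -0.17 without wild-type replicate 1.

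The 2-cell result depended on the Tet3-null libraries, of which replicate 2 was the one that stood apart. Fitted without replicate 1, with replicate 2 as the lone Tet3-null 2-cell library and assumed to vary like the other groups, limma called 15 members and 3438 genes in all. Of the 15, Rps15a was higher (0.47), and 14 were lower, the most negative being Rpl3l (-1.54), Rpl26 (-1.08), Rpl9 (-0.94), Rpl27a (-0.92) and Rpl27 (-0.80); these were named after their values were seen. Fitted without replicate 2, limma called 0 members and 335 genes in all, and the median member differed by 0.04. The median of the members also changed sign with median-of-ratios scaling, to 0.18, where the median of all genes was 0.02. Relative to all genes, the members' median was higher by 0.07 as deposited and by 0.16 with that scaling, and it was -0.13 with quantile normalization.

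In blastocysts the members lay slightly higher in Tet3-null libraries, with no call. Limma called 0 of 81, beside 0.0664% of all genes tested (9 genes), and 1 member, Rpl10, had an unadjusted p under 0.05, beside 5.46% of all genes. The difference was positive for 69 of 81 members, beside 6043 of 13549 genes tested, with a median of 0.08, against -0.02 for all genes. Members also moved together between replicates of 1 genotype. Replicate 2 was higher for 63 of 81 members in wild-type and 70 of 81 in Tet3-null blastocysts. The median of replicate 1 minus replicate 2 was -0.04 and -0.08. Both Tet3-null libraries were higher than both wild-type libraries for 43 members, beside 19.0% of all genes, and lower for 6, beside 25.3%. The median was 0.14 with median-of-ratios scaling, and 0.05 with quantile normalization. The sum of 5 trophectoderm markers was 4475 and 4165 FPKM in wild-type and 2938 and 2696 FPKM in Tet3-null blastocysts, and its part in these values was not tested.

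The largest positive difference was that of Rpl10l, at 154 and 134 FPKM in wild-type and 218 and 173 FPKM in Tet3-null libraries (0.43 ± 0.26, SE; limma adjusted p = 1). Rpl26 followed, at 224 and 209 against 288 and 253 FPKM (0.32), and then Rpl24, a late-joining protein of the large subunit, at 2542 and 2355 against 2835 and 2959 FPKM (0.24). Each of these had both Tet3-null libraries above both wild-type libraries. The most negative were Rpl13, at 699.9 and 697 against 475 and 619 FPKM (-0.36 ± 0.25), and Rpl10. Rpl10, which completes the catalytic centre of the large subunit, was at 2480.1 and 2452 FPKM in wild-type and 1924 and 1926 FPKM in Tet3-null libraries (-0.36 ± 0.11; unadjusted p = 0.0153, limma adjusted p = 0.721). No member's adjusted p in this comparison was below that of Rpl10.

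Rpl10 is among the 4 X-linked members, with Rpl36a, Rpl39 and Rps4x. At the 2-cell stage all 4 had positive genotype differences, of 0.14 (Rpl10), 0.19 (Rpl36a), 0.18 (Rpl39) and 0.05 (Rps4x). In blastocysts all 4 were negative, at -0.36, -0.01, -0.09 and -0.21 in the same order, although that of Rpl36a was 0.04 after median-of-ratios scaling and 0.01 after quantile normalization. Rps4x was at 1653 and 1705 FPKM in wild-type and 1423 and 1483 FPKM in Tet3-null blastocysts, without overlap, whereas Rpl36a (1645 and 1653 against 1608 and 1664 FPKM) and Rpl39 overlapped. The X-linked members together held 4.28 and 4.25% of the family's FPKM in wild-type blastocysts, and this share was 3.62 and 3.54% in Tet3-null blastocysts. The 2-cell shares were 2.85 and 2.71% for wild-type libraries, with 2.89 and 3.97% for the Tet3-null ones. Genes that follow the sex of the embryos in a pool differed as well. The sum of 4 Y-linked genes was 52.9 and 48.3 FPKM in wild-type and 98.0 and 90.7 FPKM in Tet3-null blastocysts, and Xist, transcribed from the inactive X, was at 16.6 and 14.6 FPKM in the former and 6.36 and 4.64 FPKM in the latter. The part of the embryos' sex in the X-linked values was not tested.

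**Figure D4:**
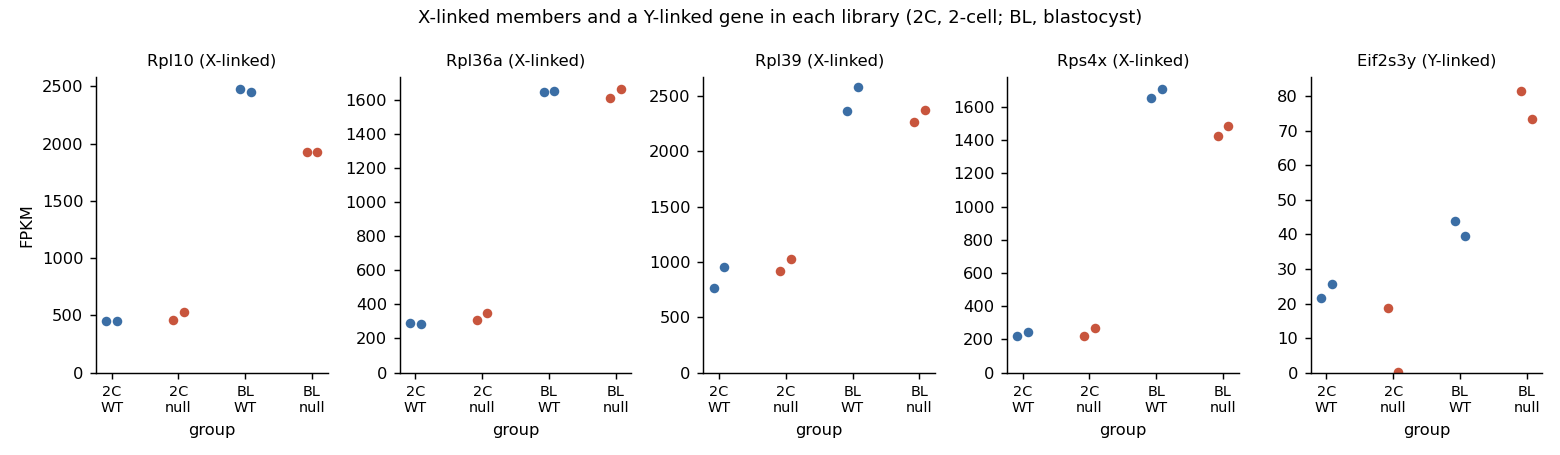
Panels give FPKM of the 4 X-linked members and of Eif2s3y, a Y-linked gene, in each library by group, blue for wild-type and red for Tet3-null (2C, 2-cell; BL, blastocyst; null, Tet3-null). Rpl10 and Rps4x lie lower in Tet3-null than in wild-type blastocysts while Eif2s3y lies higher, and Eif2s3y is near 0 in 1 Tet3-null 2-cell library.

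The genotype effect was not shown to differ between the stages for any member. Limma called 0 of 81 differences between the effects, beside 0.140% of all genes tested (19 genes), and 6 members had an unadjusted p under 0.05, beside 14.4% of all genes. These were Rpl26 (0.99 ± 0.36, SE), Rpl14 (0.61), Rpl36 (0.46), Rpl13a (0.45), Rpl10 (-0.50) and Rplp2 (-0.41), as log2 effect in blastocysts minus that in 2-cell embryos. Rpl26 thus lay lower in both Tet3-null libraries at the 2-cell stage and higher in both in blastocysts. Groups of libraries were apart in opposite directions at the stages for 11 of 81 members, beside 9.26% of all genes. The median of the members was 0.17 and that of all genes 0.13; with median-of-ratios scaling they were -0.05 and -0.03. Without Tet3-null 2-cell replicate 1, limma called 1714 genes in all, 5 of them members: Rpl3l (1.86), Rpl26 (1.40), Rps3 (0.70), Rpl13a (0.59) and Rpl10 (-0.60).

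**Figure D5:**
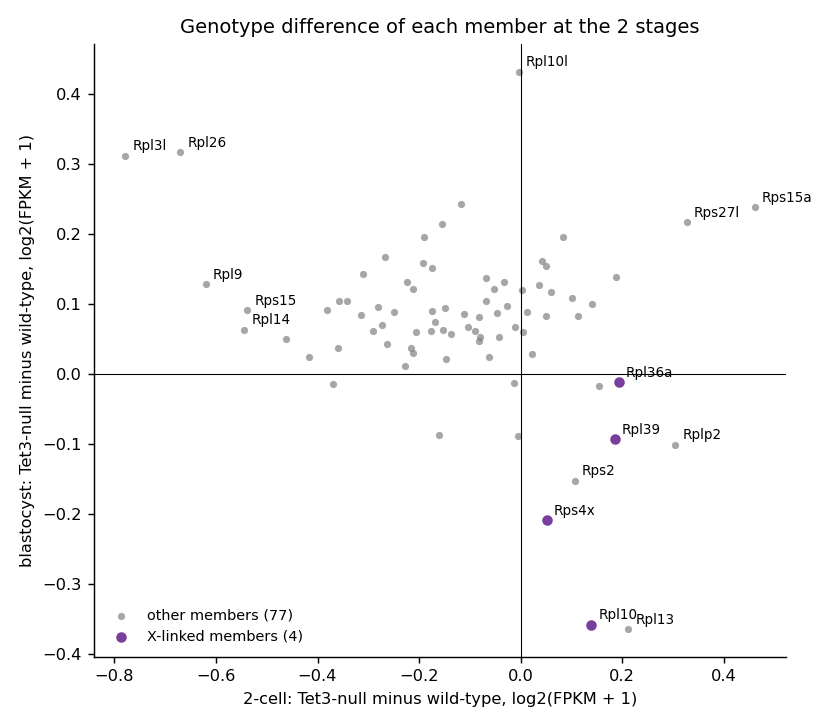
Each point is a member, placed by its Tet3-null minus wild-type difference in log2(FPKM + 1) at the 2-cell stage (horizontal) and the blastocyst stage (vertical), with the 4 X-linked members in purple. Most points lie above the horizontal line, 69 of 81, and all 4 X-linked members lie to the lower right.

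Other genes of the translation machinery moved with the family between the stages. The 6 ribosomal protein genes outside the symbol rule all rose in both genotypes, beside 35.8% of all genes in wild-type and 38.9% in Tet3-null embryos. Fau encodes a small-subunit protein fused to a ubiquitin-like protein, from which it is cut free. In wild-type embryos Fau went from 1216 and 1448 to 4842 and 5112 FPKM (log2 difference 1.91 ± 0.15, SE, limma adjusted p = 2.9e-05). Rack1, a scaffold on the small-subunit head listed as Gnb2l1, went from 48.3 and 60.1 to 1528 and 1558 FPKM, a 28.5-fold rise in mean FPKM. Of 16 other genes with TOP messages, 13 rose in each genotype, against the same shares of all genes. The largest rise was that of the elongation factor subunit Eef1g (22.8 and 18.5 to 1065 and 1169 FPKM in wild-type), and Eef1a1, which brings transfer RNA to the ribosome, rose 9.69-fold in mean FPKM. Tpt1, Npm1 and Nap1l1 were not called in either genotype, with log2 differences of 0.21, 0.08 and -0.04 in wild-type embryos.

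Among 13 regulators of ribosomal protein synthesis, 4 rose and 6 fell in wild-type embryos, and 6 rose and 5 fell in Tet3-null embryos. Of all genes tested, 35.8% rose and 38.4% fell in wild-type, and 38.9% rose and 35.1% fell in Tet3-null embryos. The ETS factor gene Gabpa fell most, from 95.3 and 115 to 15.2 and 12.4 FPKM in wild-type embryos (log2 difference -2.84 ± 0.20, SE; limma adjusted p = 1.7e-05), and Sp1, a general activator, fell by 1.60. The largest rises were those of Rps6kb2, a kinase of Rps6 (2.34), Myc, an activator of ribosome synthesis (1.51), and Larp1 (1.38). Between genotypes at the 2-cell stage, Hnrnpa1 was higher in Tet3-null embryos (log2 difference 0.81, limma adjusted p = 0.0456), and Eef1g (-1.23, adjusted p = 0.0390) and the Myc relative listed as Mycl1 (-0.99, adjusted p = 0.0473) were lower. Mycl1 was low, at 2.11 and 1.37 FPKM in wild-type and 0.354 and 0.391 FPKM in Tet3-null libraries. Of all genes tested, 2.72% were called in that comparison. No gene of these lists was called between genotypes in blastocysts.

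The 76 genes of mitochondrial ribosomal proteins encode parts of a separate ribosome, which translates the mitochondrial genome. Their median log2 rise was 1.78 in wild-type and 1.95 in Tet3-null embryos, with 61 and 57 genes called higher and 4 and 3 lower, beside 35.8 and 38.9% of all genes called higher and 38.4 and 35.1% lower. At the 2-cell stage their median genotype difference was -0.36, with 1 called higher and 4 lower. That of the cytosolic members was -0.10 with none called, and that of all genes was -0.17 with 2.72% called. In blastocysts the medians were 0.06 and 0.08, and no gene of either family was called. The difference between the families was not tested.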

How the data were processed

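RNA from 8 pools of embryos was measured by RNA-seq. Per the labels' protocols, lysed embryos gave amplified cDNA (SMARTer kit) that was sheared and made into libraries with a DNA library kit; such kits do not mark strand, which leaves sense and antisense reads mixed. Gene-level FPKM, the deposited unit, was made by the authors on the mm9 build; the tools named are Cufflinks 2.2.0, Bowtie2 2.1.0 and TopHat2 2.0.10, per the submitters' processing notes. Their annotation and how reads fitting several genes were handled are not given in the sources used.

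Genes reaching 1 FPKM in 2 or more libraries were analysed as log2(FPKM + 1). A limma 3.58.1 model (R 4.3.3) of the 4 group means used all 8 libraries, with eBayes moderation that allows a trend with level (residual degrees of freedom 4, prior 3.07), two-sided tests, Benjamini-Hochberg adjustment over all 13549 genes, and calls at an adjusted p of 0.05. The script was tested on simulated data. Log2 differences understate changes of low genes; folds are ratios of mean FPKM. An exact permutation test of 2 libraries against 2 cannot go below 0.333 and was not used. Comparisons between genotypes and between stages share libraries.

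Named members were the 5 largest calls each way in a comparison (or, with fewer, the 3 largest without overlap), the 5 highest and lowest levels, copies, X-linked, stalk and 5S particle genes, and the 3 farthest from the family median each way; outside the family, Fau, Rack1 and called pathway genes, or the 3 largest each way where over 5 were called. The members and lists were chosen with earlier results of these data known. A few genes that the rules name are not reported here. Of the listed names 5 were matched by synonym. Coordinates and sequences are of GRCm38, another build than the files', and are used for sequence only. Alternatives were 3 other scalings, a pseudocount of 0.1, no filter, no trend, a replicate block, fits of 1 stage, and each library left out; shares without Rpl41 were added after the data were seen.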

Additional observations from a re-analysis of the deposited data

Results flagged for a closer look

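For 11 of the 81 members the libraries of the genotypes were apart at both stages and in opposite directions. The limma test of the difference between the stages called none of them, and 9.26% of all genes tested showed the same. In the sentences that follow, values are Tet3-null minus wild-type on the log2(FPKM + 1) scale, at the 2-cell stage first and the blastocyst stage second. In 9 of the 11 the difference was negative and then positive. Among these were Rpl26 (-0.67 and 0.32), Rpl9 (-0.62 and 0.13), Rpl14 (-0.54 and 0.064), Rps15 (-0.54 and 0.0916), Rpl36 (-0.36 and 0.11) and Rpl13a (-0.34 and 0.10). It was positive and then negative in Rpl10 (0.14 and -0.36) and Rplp2 (0.30 and -0.10).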

How the results depend on the processing

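Among recomputed counts, shares and medians, 146 stayed close to the reported value and 18 moved; among single genes in the comparison that named them, 555 values kept direction and side of the threshold, 12 passed it anew, 13 lost it and 3 reversed. Other sign changes and lost calls under scaling stand beside their genes above. With median-of-ratios scaling the members' median log2 difference between genotypes was 0.18 at the 2-cell stage and 0.14 in blastocysts. The median stage difference was 1.32 in wild-type and 1.52 in Tet3-null embryos with quantile normalization, and 1.57 and 1.77 with a fixed sum without small RNA genes, where the median of all genes was -0.51 and -0.32. Without Rpl41, an alternative chosen after seeing the data, the family's share was 7.93% and 7.33% (2-cell, wild-type and Tet3-null) and 19.6% and 20.2% (blastocyst). With small RNA genes also left out it was 8.60, 8.12, 22.4 and 23.1%, and with only those left out it was 23.8 and 24.6% in blastocysts. Leaving out each library in turn gave 0 to 15 members (10 to 3438 genes in all) called between genotypes at the 2-cell stage, 0 in blastocysts, 0 to 5 for the difference between stages, 74 to 79 between stages in wild-type and 74 to 77 in Tet3-null embryos. In the same fits the members' median ranged from -0.27 to 0.04 (2-cell genotype), 0.04 to 0.12 (blastocyst genotype), 2.01 to 2.22 and 2.17 to 2.38 (stage) and 0.04 to 0.34 (difference). An arm left with 1 library was assumed to vary like the others. Directions reversed for Rps27l at the 2-cell stage with quantile normalization (-0.0523), for Rpl13 there when a wild-type 2-cell library was left out (-0.17 to 0.60) and for Rpl41 between stages when a Tet3-null 2-cell library was left out (-0.36 to 0.021). The cause was not tested. Replicate numbers of the groups pair nothing by the labels, and deviations of same-numbered libraries correlated at -0.08 to 0.02 over all genes and, over the members, at -0.02 and 0.16 between genotypes and 0.32 and 0.46 between stages. With the replicate block 0 members were called between genotypes at either stage, 76 and 77 between stages, and 0 for the difference, and over all genes the 2-cell count went from 368 to 31; the wild-type call of Rpl39l was lost (adjusted p = 0.0526). Unknown read totals set an unknown limit on low members such as Rpl3l, Rps15a and Rpl22.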
